A study of Mus musculus with 4 samples.

Results

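Foxp3, Il2ra, Ikzf2, Ikzf4, Lrrc32, Itgb8, Neb and Klrg1 are genes whose transcripts mark regulatory T cells (Tregs), the CD4 T cells that restrain immune responses. These 8 genes, taken by symbol with no threshold on their levels, were followed out of 19059 genes in live cells sorted for CD45 from subcutaneous tumors of MC38, a cell line of mouse colon carcinoma. All 8 were detected. The host mice were C57BL/6 carrying a humanized CTLA-4 gene (B-hCTLA-4), so that ipilimumab, a human IgG1 antibody to human CTLA-4, could bind. Each mouse was given MC38 cells under the skin and 3 treatments from a tumor size of about 100 mm3, and tumors were taken on day 8 of treatment.

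The 4 groups were isotype control (human IgG1, 10 mg/kg), ipilimumab, an Fc-silent anti-mouse FcγRII antibody (AT130-2, mouse IgG1 with an N297A change), and the combination of ipilimumab at 10 mg/kg with anti-FcγRII at 20 mg/kg. The labels of both single-antibody libraries contradict themselves: the library titled anti-human CTLA-4 lists anti-mouse FcγRII as its treatment, and the library titled anti-mouse FcγRII lists anti-human CTLA-4. They are therefore called the CTLA-4-titled and the FcγRII-titled library, and which antibody each received cannot be told apart from the labels. The article describes other numbers of tumors, another harvest day and other doses than the labels. Tumors of 11 mice were pooled into 1 library per group, so no value has a replicate, a group cannot be told apart from its library, no test between groups was possible, and all intervals are 95% intervals that cover counting error only.

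Foxp3 encodes the transcription factor that defines the Treg lineage. Il2ra encodes CD25, the high-affinity chain of the interleukin-2 receptor, and Ikzf2 and Ikzf4 encode Helios and Eos, Ikaros-family factors abundant in Tregs. Lrrc32 encodes GARP, which holds latent TGF-β at the Treg surface, and Itgb8 encodes the β8 integrin chain that helps release active TGF-β. Klrg1 encodes an inhibitory receptor of mature effector lymphocytes, including effector Tregs, NK cells and CD8 T cells. Neb encodes nebulin, a giant protein of muscle thin filaments whose transcript is also used as a marker of activated Tregs. In mouse tumors Tregs carry much CTLA-4 on their surface, and antibodies to CTLA-4 with an active Fc part can remove them through Fcγ receptors on myeloid cells.

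RefSeq promoter sequences (GRCm38.p6) were at hand for 3 of the 8 genes, Foxp3 with 2 transcript starts, Il2ra and Itgb8. These 3 were not chosen by level but shown because the others had no sequence at hand. All 8 genes had values below isotype control in the CD4 T cells of the combination library, as described below. With all cells counted, the interval of the Lrrc32 ratio includes 1. The median ratio there over the 8846 genes with at least 20 UMIs was 0.965, and the share of those genes below isotype control was not computed. A link between these sequences and the levels was not tested. Each run holds the 250 bases before the annotated start, 5′ to 3′ on the strand of the gene, with a match to the STAT motif TTCNNNGAA in capitals. Foxp3 lies on the + strand of chromosome X, with windows chrX:7579426-7579675 and chrX:7580233-7580482. The Il2ra window is chr2:11642542-11642791 on the + strand, and the Itgb8 window is chr12:119238277-119238526 on the - strand.
Foxp3, upstream start: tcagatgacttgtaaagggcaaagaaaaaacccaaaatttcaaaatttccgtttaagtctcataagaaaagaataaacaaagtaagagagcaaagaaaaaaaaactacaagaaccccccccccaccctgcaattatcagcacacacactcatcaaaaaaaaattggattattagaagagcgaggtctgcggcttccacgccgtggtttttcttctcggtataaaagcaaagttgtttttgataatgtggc
Foxp3, downstream start: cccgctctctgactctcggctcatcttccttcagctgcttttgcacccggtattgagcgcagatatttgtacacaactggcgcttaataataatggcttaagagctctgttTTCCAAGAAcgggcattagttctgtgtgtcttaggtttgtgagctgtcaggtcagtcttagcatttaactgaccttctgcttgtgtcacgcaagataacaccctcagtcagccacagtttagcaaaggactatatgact
Il2ra: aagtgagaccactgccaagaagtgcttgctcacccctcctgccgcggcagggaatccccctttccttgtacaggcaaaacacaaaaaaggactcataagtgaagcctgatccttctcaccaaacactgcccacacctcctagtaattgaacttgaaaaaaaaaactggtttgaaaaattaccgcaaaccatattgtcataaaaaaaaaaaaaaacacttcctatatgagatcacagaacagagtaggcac
Itgb8: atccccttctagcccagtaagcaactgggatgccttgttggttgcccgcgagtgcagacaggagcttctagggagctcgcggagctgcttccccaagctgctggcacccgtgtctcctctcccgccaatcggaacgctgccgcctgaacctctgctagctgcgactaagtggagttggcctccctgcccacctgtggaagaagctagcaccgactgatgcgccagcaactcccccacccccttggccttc
The window of the downstream Foxp3 start held 1 match to the STAT motif, whose 5′ base lies 139 bases before the transcript start, and the other 3 windows held none. Of 32851 promoters of this length in the table, 7.02% held this motif on either strand. The forkhead motif TGTTTAC, held by 3.17% of promoters, and the RUNX motif TGTGGT, held by 14.0%, were in none of the 4 windows. Such matches describe letters and no factor was measured at these sites.

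The libraries held 6097 to 8173 cells with 129151823 to 196362818 UMIs (unique molecular identifiers, each counting 1 captured probe molecule), and 5779 to 7741 cells each were kept. No whole barcode was shared between libraries, while 712 to 1148 barcodes per pair of libraries had the same initial 16 bases. Ptprc, which encodes CD45, had a UMI in 96.0% to 97.6% of kept cells. Levels, written as CPM, are UMIs of a gene summed over a cell class and set to 1000000 UMIs of that class, and were compared within a gene only, since a probe assay carries no scale that compares genes. Cells were placed in 27 clusters without use of the 8 genes. T cell clusters were split by UMIs of Cd4 and of Cd8a or Cd8b1, and NK cell clusters by Eomes and by Itga1 or Cd200r1 into NK cells and type 1 innate lymphoid cells (ILC1). This gave 203, 237, 85 and 110 CD4 T cells in the isotype, CTLA-4-titled, FcγRII-titled and combination library, the order kept throughout. A cluster of 2316 cells carried both T cell and macrophage transcripts and was kept apart as mixed.

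In CD4 T cells, 7 of the 8 genes were at least 2-fold lower in the combination library than under isotype control, and Lrrc32 alone stayed above that limit. Among all 8846 genes with at least 20 UMIs over both libraries, 4.13% were at least 2-fold lower. The median log2 ratio of the 8 genes was -2.62, against -0.05 over those 8846 genes. No member was 2-fold higher, against 3.1% of genes. In the CTLA-4-titled library 4 of 8 were at least 2-fold lower (Il2ra, Itgb8, Neb and Klrg1), against 5.56% of genes, and in the FcγRII-titled library 1 of 8 (Itgb8), against 2.3%. With no doublets removed these counts were 7, 2 and 0. None was 2-fold higher in either, against 1.65% and 3.15% of genes. These comparisons share the isotype library.

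**Figure D1:**
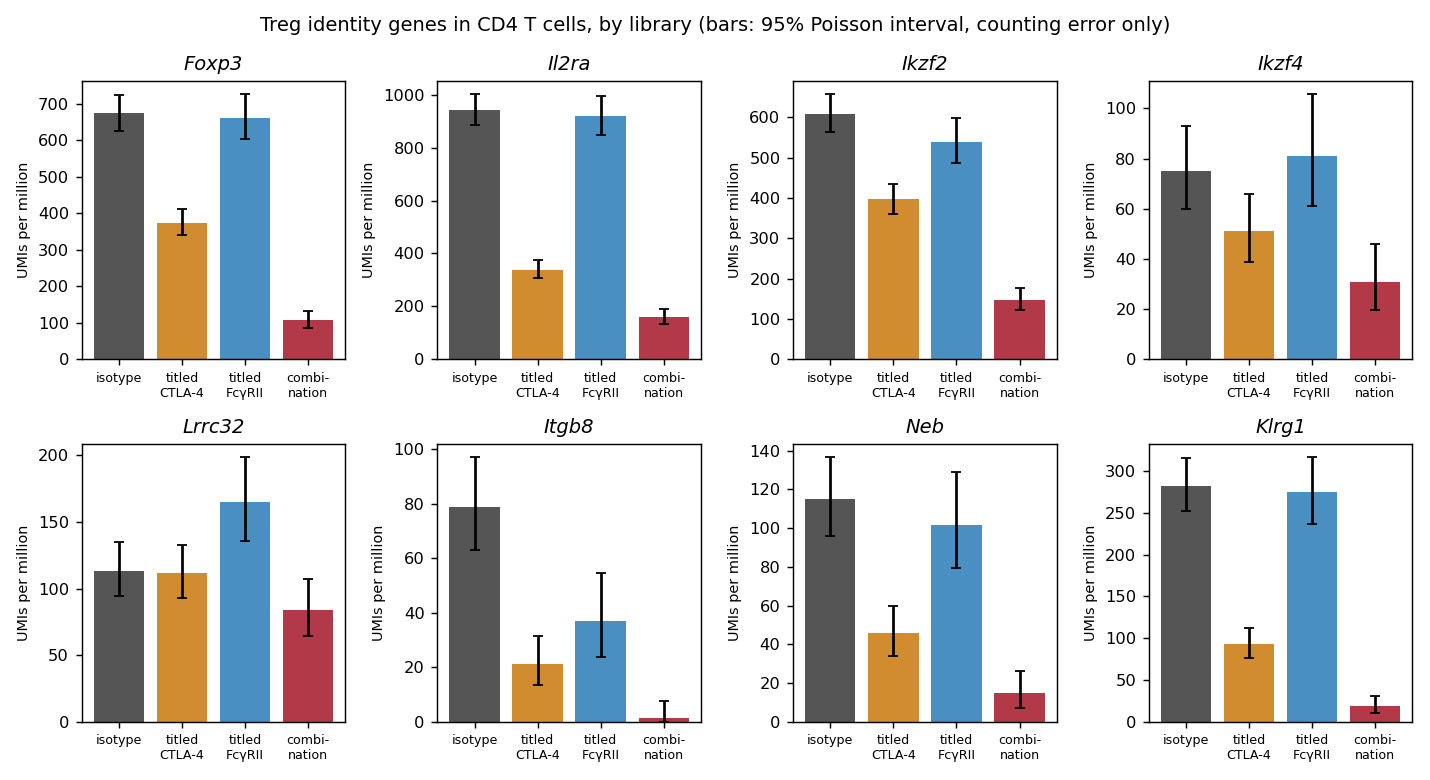
Level of each gene in CD4 T cells of the 4 libraries, in CPM on a linear axis from 0. Bars stand for 1 library each and error bars for the exact 95% Poisson interval. The combination library is the lowest in all 8 panels, at 107 for Foxp3 against 674 under isotype control, and its Lrrc32 interval overlaps that of isotype control.

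Foxp3 (chrX:7573644-7595245) stood at 674, 374, 663 and 107 CPM in CD4 T cells, from 745, 426, 449 and 80 UMIs. The isotype and FcγRII-titled libraries lay together, the CTLA-4-titled library between, and the combination lowest. The ratio to isotype control was 0.158 (0.124 to 0.200) for the combination, 0.555 (0.491 to 0.625) for the CTLA-4-titled library and 0.983 (0.872 to 1.11) for the FcγRII-titled library, whose interval includes 1. The middle value moved under other settings: it was 0.833 with no doublets removed, and 1.08 with mixed cells, described below, that held Cd4 and no Cd8 UMIs counted as CD4 T cells. In bulk sums such as these, fewer cells of a kind and less RNA per cell cannot be told apart, so shares of cells follow. The combination was also below the CTLA-4-titled library, with a ratio of 0.285 (0.222 to 0.363). In that comparison 6 of 8 members were at least 2-fold lower, with Ikzf4 and Lrrc32 the exceptions, against 3.26% of genes, and over the FcγRII-titled library 7 of 8 were, Lrrc32 the exception, against 5.03%.

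A Foxp3 UMI was present in 82 of 203, 48 of 237, 43 of 85 and 8 of 110 CD4 T cells. The shares with exact binomial intervals were 40.4% (33.6 to 47.5), 20.3% (15.3 to 25.9), 50.6% (39.5 to 61.6) and 7.27% (3.19 to 13.8), lowest in the combination and without overlap of its interval with any other. The share in the combination was 0.180 (0.0905 to 0.358) times that under isotype control. Drawing each cell down to 2217 UMIs, the 10th percentile of lymphoid cells, and leaving out shallower cells gave 39.8%, 20.7%, 43.2% and 6.21% of 180, 209, 78 and 97 cells. With the mixed Cd4 cells counted in, the shares were 51.4%, 22.0%, 52.0% and 8.87%, in the same order of libraries. Positive cells held a mean of 9.09, 8.88, 10.4 and 10 Foxp3 UMIs. Set to their total UMIs, Foxp3 in positive cells was at 1434, 1482, 1019 and 859 CPM, with a combination ratio to isotype control of 0.599 (0.470 to 0.756). In the combination, 1 cell held 41.2% of the 80 Foxp3 UMIs.

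NK cells, which should lack Foxp3, gave the level of stray transcript. A Foxp3 UMI was found in 3 of 247, 0 of 300, 1 of 170 and 0 of 292 NK cells, where 0 of 292 allows up to 1.03%. NK cells had a median of 5010 UMIs, against 4159 in CD4 T cells. The Foxp3 share of the combination's CD4 T cells lay above the shares of NK cells in all 4 libraries, of which the highest was 1.21%.

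Il2ra (chr2:11642807-11693193) showed the same order of libraries, at 944, 339, 919 and 159 CPM. The combination and the CTLA-4-titled library were the low ones, with ratios to isotype control of 0.168 (0.138 to 0.203) and 0.359 (0.319 to 0.404). A single isotype cell, without a Foxp3 UMI, held 16.8% of the 1043 Il2ra UMIs of its class. With the cell highest in Il2ra left out of each library, the ratios were 0.181 (0.146 to 0.221) and 0.399 (0.351 to 0.452). Ikzf2 (chr1:69531214-69687245) stood at 609.8, 397, 540.1 and 147, lowest in the combination, with a ratio of 0.241 (0.195 to 0.295). Its paralog Ikzf4 (chr10:128630843-128645991) was measured from few UMIs, 83, 58, 55 and 23, which gave 75.1, 50.9, 81.2 and 30.7 CPM. Its combination ratio of 0.409 (0.246 to 0.655) was the nearest to 1 of the 7.

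The pair of genes for TGF-β activation went apart. Itgb8 (chr12:119158022-119238802) had 87, 24, 25 and 1 UMIs in CD4 T cells, or 78.7, 21.1, 36.9 and 1.33 CPM. With its single UMI in the combination the ratio was 0.0169 (0.000424 to 0.0969), and the ratios of the CTLA-4-titled and FcγRII-titled libraries were 0.268 (0.163 to 0.424) and 0.469 (0.288 to 0.738). Lrrc32 (chr7:98489283-98502181) stood at 113, 111, 165 and 84 CPM, with the isotype and CTLA-4-titled libraries together. Its combination ratio of 0.743 (0.540 to 1.01) has an interval that reaches 1, and 1 cell held 34.8% of its UMIs in the FcγRII-titled library, where the ratio was 1.46 (1.12 to 1.90). With the cell highest in Lrrc32 left out of each library, these ratios were 0.625 (0.436 to 0.883) and 1.09 (0.799 to 1.47). Whether either interval includes 1 thus rests on single cells.

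Neb (chr2:52136647-52378474) stood at 115, 45.6, 102 and 14.7 CPM, and its combination ratio was 0.128 (0.0622 to 0.236) from 11 UMIs. Klrg1 (chr6:122270596-122282882) stood at 282, 93, 274 and 18.7, with ratios of 0.0661 (0.0357 to 0.113) in the combination and 0.329 (0.262 to 0.412) in the CTLA-4-titled library. After Itgb8, Klrg1 had the lowest ratio of the 8 in the combination. Of the 14 Klrg1 UMIs in that library's CD4 T cells, 50% came from 1 cell.

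Macrophage transcripts were present in this class too. All 10 macrophage markers were detected in CD4 T cells of every library, with a summed level of 5566, 1605, 12579 and 5153 CPM, and 16, 4, 12 and 7 cells had at least 1% of their UMIs on them. Without those cells, 7 of the 8 genes were still at least 2-fold lower in the combination.

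CD4 T cells of each library were then split by whether they held a Foxp3 UMI. Within the isotype, CTLA-4-titled and FcγRII-titled libraries, all 7 other genes were at least 2-fold higher in CD4 T cells with a Foxp3 UMI than in those without, while 4.38%, 5.68% and 6.52% of genes were. In the combination, with 8 Foxp3-positive cells, 4 of the 7 reached 20 UMIs and 3 of those 4 were 2-fold higher (Ikzf2, Ikzf4 and Lrrc32), against 5.87% of genes. The Ikzf4 call, at 2.49 (0.804 to 6.62), came from 6 UMIs in positive and 17 in negative cells. Without the cell highest in Ikzf4 of each group the ratio was 1.07 (0.119 to 4.68), with 16 UMIs left, under the limit of 20. Foxp3-positive cells were deeper, with medians of 4398, 4321, 5868 and 8124 UMIs against 3647, 3748, 4136 and 4670. With cells in the same range of total UMIs, 7, 6 and 7 of the 7 genes were at least 2-fold higher in the isotype, CTLA-4-titled and FcγRII-titled library.

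Helios marked the Foxp3-positive cells in each library. Ikzf2 was at 1178, 1166, 722 and 494 CPM in positive cells and at 106, 137, 203 and 97.5 in negative cells, with ratios of 11.1 (8.56 to 14.7), 8.49 (6.86 to 10.6), 3.56 (2.62 to 4.93) and 5.07 (3.39 to 7.52). It had a UMI in 93.9%, 97.9%, 95.3% and 100% of positive cells. Il2ra had ratios of 3.52 (3.05 to 4.07), 5.33 (4.31 to 6.61), 6.91 (5.09 to 9.57) and 1.18 (0.659 to 1.98), the last with an interval that includes 1. With the cell highest in Il2ra left out of each group, the isotype ratio was 10.8 (8.57 to 13.9) and that of the combination 0.865 (0.401 to 1.67). Klrg1 had ratios of 19.6 (12 to 34.0), 14.5 (8.66 to 25.6) and 16.1 (7.27 to 44.5) in the 3 libraries with enough UMIs. Itgb8 lay almost wholly in positive cells under isotype control, with 86 of its 87 UMIs there.

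Counted per cell, 91.5%, 83.3%, 83.7% and 50% of Foxp3-positive CD4 T cells held UMIs of at least 3 of the other 7 genes. Of Foxp3-negative CD4 T cells 4.13%, 2.65%, 2.38% and 5.88% did. The median positive cell under isotype control held 5 of the other 7, and the median negative cell held 0.

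**Figure D2:**
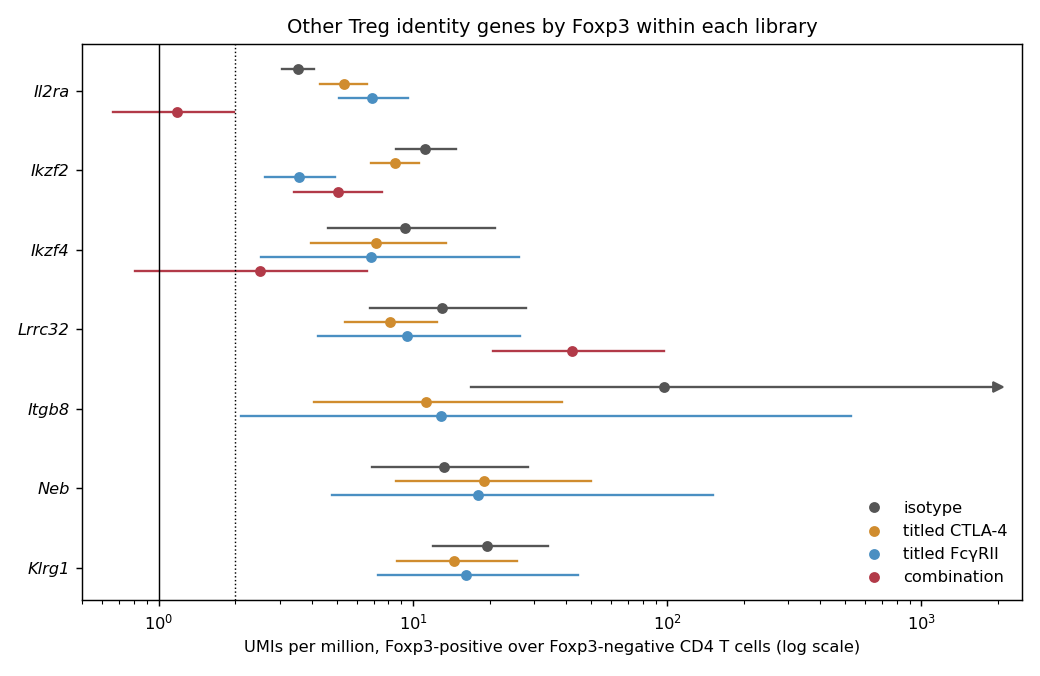
Ratio of each other gene between Foxp3-positive and Foxp3-negative CD4 T cells on a log axis, by library, with exact 95% intervals, for genes with at least 20 UMIs over both kinds of cell. Points of the isotype, CTLA-4-titled and FcγRII-titled libraries all lie beyond 2, while Il2ra of the combination is at 1.18.

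The few Foxp3-positive CD4 T cells of the combination differed from those under isotype control, and those of the single-antibody libraries went partly the same way. Their Il2ra was 183 CPM against 1521 (0.120, 0.0696 to 0.194), and their Klrg1 75.2 against 568 (0.132, 0.0528 to 0.276), from 7 UMIs in 1 cell. Their Ikzf2 was 494 against 1178 (0.420, 0.304 to 0.567). Lrrc32 went the other way, at 580.1 against 221 (2.62, 1.86 to 3.65), with UMIs in 5 of 8 cells. Itgb8 was 10.7 against 166, from 1 UMI. Neb was 64.5 against 225 and Ikzf4 64.5 against 142, from 6 UMIs each. The Ikzf4 levels have intervals that overlap, 23.7 to 140 and 112 to 179. Values of the combination rest on 8 cells, and the intervals do not cover the spread between cells. In Foxp3-positive cells of the CTLA-4-titled library Il2ra was 863, Klrg1 306, Itgb8 66.1, Neb 157 and Lrrc32 324. Ikzf2 (1166) and Ikzf4 (143) were near isotype control there. In those of the FcγRII-titled library Il2ra was 1311, Klrg1 408, Ikzf2 722, Ikzf4 116, Itgb8 54.5 and Neb 152, all below isotype control. Lrrc32 was 241 there.

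Foxp3-negative CD4 T cells held most of the Il2ra left in the combination, 102 of 119 UMIs. Their Il2ra was 432, 162, 189.9 and 155 CPM. The isotype value rests on 1 cell, which held 175 of 253 UMIs. With the highest cell of each library left out, the levels were 136, 149.9, 116 and 138, and the ratios to isotype control 1.10 (0.825 to 1.48), 0.853 (0.529 to 1.34) and 1.01 (0.740 to 1.39) in the other libraries, with intervals that include 1. Their Ikzf2 was 106, 137, 203 and 97.5, and the interval of the combination ratio of 0.921 (0.639 to 1.33) includes 1. In the combination, of the 4 genes with at least 20 UMIs, Il2ra and Klrg1 were at least 2-fold lower in these cells with all cells counted, against 4.14% of genes. Without the highest cells the Il2ra call was lost, at 1.01. The Klrg1 ratio was then 0.403 (0.0906 to 1.44), with 13 UMIs left, under the limit of 20 for a call.

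The mixed cluster held a large part of all Foxp3. It took up 909, 264, 386 and 757 cells, with a median of 29832 UMIs per cell, and Foxp3, Icos, Trac, Cd3e and Cd8a were among its leading genes. It held 60.5%, 26.6%, 52.0% and 52.4% of the Foxp3 UMIs of its library, against 13.6%, 40.8%, 21.7% and 16.7% in CD4 T cells. Whether a mixed cell was a T cell and a macrophage caught together was not tested.

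**Figure D3:**
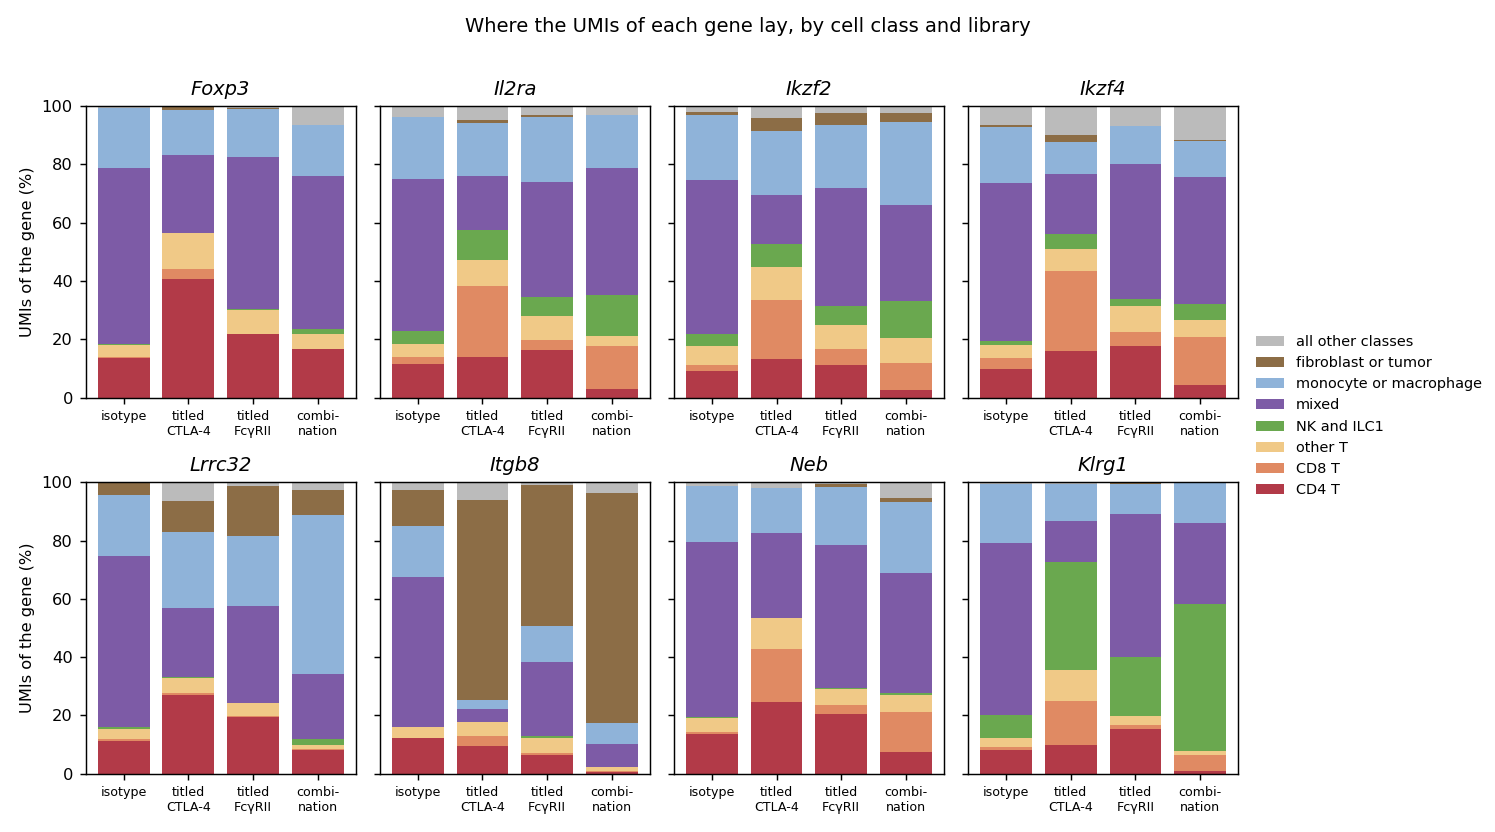
Share of the UMIs of each gene that lay in each group of cell classes, in percent, by library. Mixed cells hold 51.4% to 60.5% of the UMIs of the 8 genes under isotype control, fibroblasts or tumor cells hold 78.9% of Itgb8 in the combination, and NK cells alone hold 42.3% of Klrg1 there.

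Among mixed cells the combination again had the lowest share of Foxp3-positive cells, with 323 of 909, 27 of 264, 106 of 386 and 30 of 757, or 35.5% (32.4 to 38.7), 10.2% (6.85 to 14.5), 27.5% (23.1 to 32.2) and 3.96% (2.69 to 5.61). Foxp3 stood at 90.6, 36.0, 79.6 and 7.53 CPM, a combination ratio of 0.0831 (0.0728 to 0.0945). In the combination 7 of 8 genes were at least 2-fold lower there, Ikzf4 the exception at 0.547 (0.464 to 0.643), against 3.14% of genes. Mixed cells and CD4 T cells of a library come from the same tumors, so this is no replicate.

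The other genes were also high in Foxp3-positive mixed cells, but here unlike cells were set side by side. A Cd4 UMI was in 90.7%, 92.6%, 91.5% and 96.7% of positive mixed cells and in 32.6%, 27.0%, 33.2% and 30.3% of negative ones. Median depths were 37717, 26499, 32224 and 46696 UMIs in positive and 25990.5, 25517, 30930 and 32741 in negative cells. The part of these differences was not tested. Against Foxp3-negative mixed cells, 7 of 7, 6 of 6, 7 of 7 and 4 of 6 genes with enough UMIs were at least 2-fold higher, while 1.56%, 1.9%, 1.86% and 2.32% of genes were. The 30 positive mixed cells of the combination had Il2ra at 104 against 228 CPM under isotype control (0.454, 0.393 to 0.522). Their Klrg1 was 24.3 against 114 (0.214, 0.157 to 0.284) and their Itgb8 2.53 against 20.2 (0.125, 0.0404 to 0.295). Their Lrrc32 was 37.4 against 34.0, a ratio of 1.10 (0.852 to 1.40). Their Neb was 9.60 against 29.6 and their Ikzf2 92.0 against 175. Ikzf4 was 12.6 against 20.9. Foxp3, which chose these cells, was 127 against 187, with a mean of 8.37 against 10.3 UMIs per positive cell. Il2ra, Klrg1, Itgb8, Neb, Ikzf2 and Ikzf4 thus had values below isotype control in the Foxp3-positive cells of both classes, and Lrrc32 in neither. Foxp3, which chose the cells, is left out of this list. In CD4 T cells of the combination, Neb and Ikzf4 rest on 6 UMIs each and Klrg1 and Itgb8 on 1 cell each. In both classes the median depth of these cells was higher in the combination than under isotype control, and the part of depth in the ratios was not tested. The share of all genes below isotype control or past 2-fold was not computed for these comparisons, so no count of members is given.

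Monocytes and macrophages, the largest class with 5511, 4292, 4610 and 4827 cells, held a further 15.6% to 20.5% of Foxp3 UMIs. These sat in 153, 23, 40 and 19 cells, of which 88.2%, 87.0%, 82.5% and 89.5% also had a UMI of a Cd3 gene. Of the cells without Foxp3, 7.52%, 5.25%, 2.82% and 13.2% had one. Foxp3-positive cells of this class were deeper, with medians of 34375 to 47584 UMIs against 14373 to 19987. Foxp3 of the class stood at 10.8, 1.86, 3.5 and 0.693 CPM, with a combination ratio of 0.0639 (0.0505 to 0.0799).

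**Figure D4:**
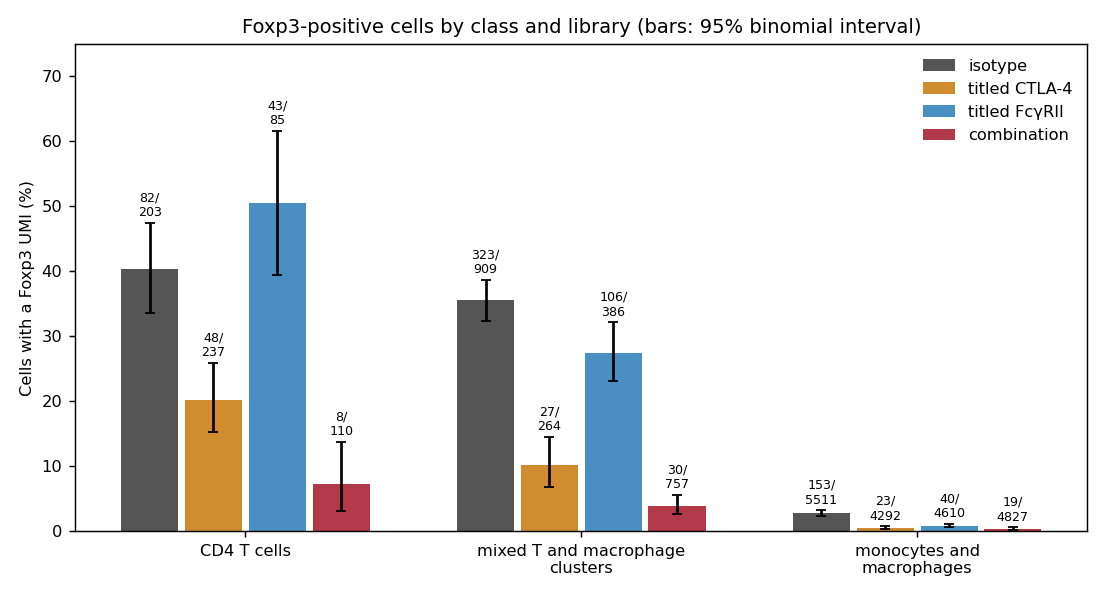
Percent of cells with at least 1 Foxp3 UMI in CD4 T cells, mixed cells, and monocytes and macrophages of the 4 libraries, with exact 95% binomial intervals. In each class the combination is the lowest, at 7.27%, 3.96% and 0.394%. In monocytes and macrophages its share over that of the CTLA-4-titled library was 0.735 (0.401 to 1.35), an interval that includes 1.

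CD8 T cells, the killer T cells, gave another picture. There were 115, 337, 98 and 240 of them, and Foxp3 was found in 1, 2, 0 and 0, where 0 of 240 allows up to 1.25%. Il2ra stood at 171, 177, 84.8 and 186 CPM and Ikzf2 at 121, 179.8, 121 and 128. Ikzf4 stood at 21.3, 26.4, 10.1 and 26.6 and Klrg1 at 24.3, 41.3, 9.42 and 28.8. The FcγRII-titled library was lowest for Il2ra, Ikzf4 and Klrg1. None of the 5 members with at least 20 UMIs passed 2-fold between combination and isotype control, against 2.93% of genes higher and 2.17% lower. Their ratios ran from 1.07 (0.887 to 1.29) for Ikzf2 to 1.51 (0.588 to 4.56) for Neb.

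In the CTLA-4-titled library 1 of 6 members was 2-fold higher in CD8 T cells, Neb at 2.31 (0.973 to 6.69), against 2.02% of genes, and none was 2-fold lower, against 3.19%. In the FcγRII-titled library 3 of 4 were 2-fold lower, Il2ra, Ikzf4 and Klrg1, against 1.83%, and with no doublets removed 0 were. CD8 T cells lay in 2 clusters, and Il2ra was higher in the cluster led by Ccl1, Ifng and Serpine2 (210.2, 211, 104 and 218 CPM) than in the other (59.7, 64.1, 38.9 and 108). Klrg1 was at 14.9, 40.9, 5.72 and 29.1 in the former and 51.2, 42.8, 18.3 and 28.1 in the latter. The cluster led by Ccl1 held 46.1%, 57.6%, 50% and 47.1% of CD8 T cells.

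NK cells and ILC1, innate lymphocytes that also carry Klrg1, numbered 247, 300, 170 and 292 and 50, 64, 41 and 78. Klrg1 stood at 125, 155, 111 and 223 CPM in NK cells, highest in the combination, where it was lowest in CD4 T cells. Its ratio to isotype control was 1.78 (1.54 to 2.06) for the combination and 1.24 (1.04 to 1.47) for the CTLA-4-titled library. A UMI was found in 23.9%, 29.3%, 19.4% and 33.6% of NK cells, and after drawing down in 16.1%, 18.9%, 11.0% and 21.7%. In ILC1 the level was 55.3, 93.2, 86.0 and 106 CPM, from 27, 52, 38 and 78 UMIs. None of the 3 members with enough UMIs passed 2-fold in ILC1 of the combination, against 3.43% of genes higher and 4.62% lower.

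NK cells lay in a cluster led by Gzma and Klra8 and in another led by Gzmc and Gzmd, and the latter held 24.7%, 22.7%, 26.5% and 41.8% of them. Klrg1 was 78.3, 138, 44.8 and 93.9 in the former and 179.9, 174, 210.2 and 294 in the latter. Ikzf2 was 42.4, 28.4, 32.1 and 36.3 in the former and 94.7, 98.4, 106 and 130.4 in the latter. The library with the highest Klrg1 and Ikzf2 in NK cells thus also had the highest share of the cluster led by Gzmc, and the part of this share in the class levels was not tested. Among the other members in NK cells of the combination, Il2ra had a ratio of 0.976 (0.832 to 1.15), Ikzf2 of 1.45 (1.18 to 1.79) and Ikzf4 of 2.56 (0.933 to 8.74). Ikzf4 was the 1 member of 4 at or past 2-fold, from 20 and 5 UMIs and at 0.982 with cells gated singly, against 2.28% of genes.

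**Figure D5:**
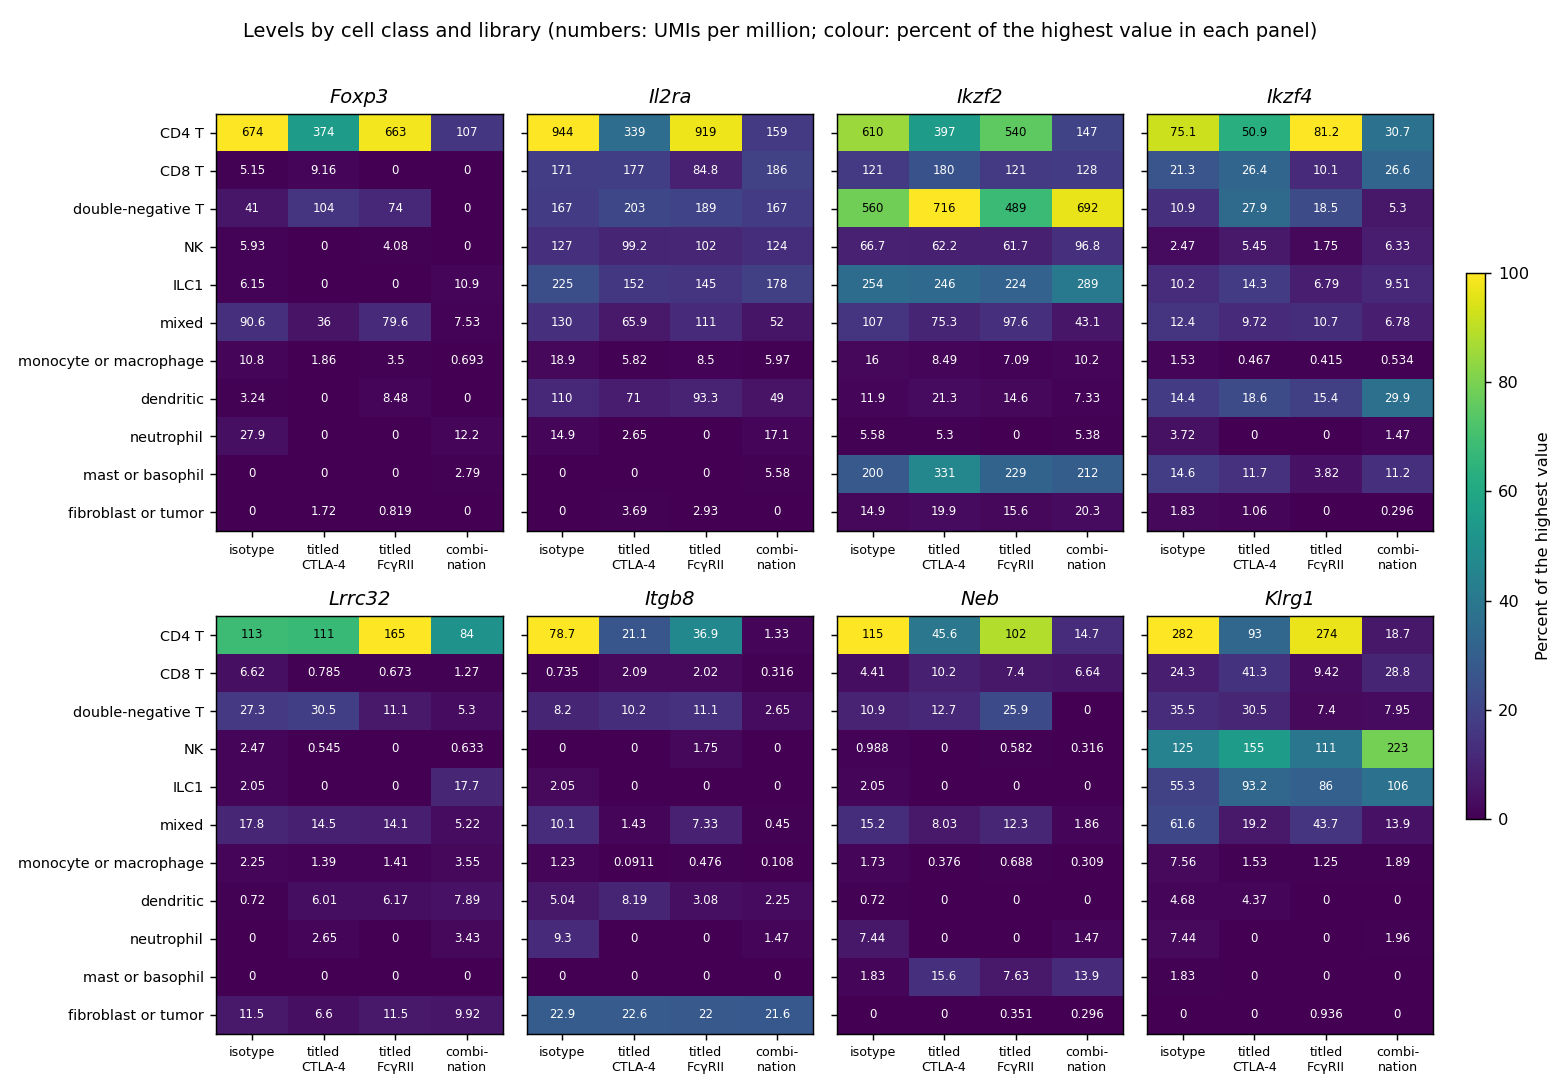
Level of each gene by cell class and library. Numbers are CPM, and colour is scaled within each gene, since levels of different genes cannot be compared. Foxp3 is high in CD4 T cells, whereas Ikzf2 is at 489 to 716 in double-negative T cells and Itgb8 at 21.6 to 22.9 in fibroblasts or tumor cells.

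Several members were also measured well outside CD4 T cells. Ikzf2 stood at 560.4, 716, 489 and 692 CPM in T cells without Cd4 or Cd8 UMIs, at 254, 246, 224 and 289 in ILC1, and at 199.6, 331, 229 and 212 in mast cells or basophils. In none of these 3 classes was Ikzf2 2-fold lower in the combination than under isotype control. Itgb8 was 22.9, 22.6, 22.0 and 21.6 in fibroblasts or tumor cells, level across libraries, whereas it ran from 78.7 to 1.33 in CD4 T cells. In monocytes and macrophages Lrrc32 was 2.25, 1.39, 1.41 and 3.55, higher in the combination (1.58, 1.34 to 1.86), where 6 of the other 7 members were at least 2-fold lower, against 3.96% of genes. In the CTLA-4-titled and FcγRII-titled libraries 6 and 7 of the 8 were, against 2.85% and 5.03%. The members were sparse in monocytes and macrophages, with a UMI in 0.515% (Itgb8) to 10.3% (Ikzf2) of these cells over all libraries. Of those with a Foxp3 UMI 87.2% also had a Cd3 UMI, against 7.31% of the others, and where the member UMIs came from was not tested. Ikzf4 reached 14.4, 18.6, 15.4 and 29.9 in dendritic cells.

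Across the 52 sums of a class in a library with at least 20 cells, Izumo1r, which encodes folate receptor 4, was most like Foxp3, with a Pearson r of 0.90 on the log2(level + 1) scale. Ccr4 (0.87), Ncmap (0.85), Igsf23 (0.83) and Tnfrsf4 (0.80) followed. These sums share libraries and depths, so r describes likeness only. The gene most like each other member was Kbtbd11 for Il2ra (0.92), Faah for Ikzf2 (0.92), Pkp3 for Ikzf4 (0.82), Ccr4 for Lrrc32 (0.82), Map6 for Itgb8 (0.75), Izumo1r for Neb (0.85) and Gzmb for Klrg1 (0.91).

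Of 41 further Treg-associated genes, 40 had at least 20 UMIs in CD4 T cells. In the combination 5 of 40 were at least 2-fold lower than under isotype control (Ctla4, Tigit, Izumo1r, Itgae and Il10) and 2 were 2-fold higher (Furin and Il1r2), against 4.13% and 3.1% of genes. Their median ratio was 0.960, against 0.965 over all genes. By role, the lower genes were 4 of 14 surface receptors and 1 of 4 secreted suppressors. None was among 3 Ikaros-family genes, 7 genes of the interleukin-2 receptor and its signal, or 4 genes of TGF-β activation. Nor was any among 8 other listed transcription factors, which include Bach2 and Satb1.

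Itgae, which encodes the αE integrin chain CD103, had the lowest ratio, with 206 against 2.67 CPM in the combination (0.0129, 0.00156 to 0.0473). Il10, a suppressive cytokine, was at 183 against 9.34 (0.0511, 0.0203 to 0.107), where 141 of the 202 isotype UMIs came from 1 cell, and Tigit, an inhibitory receptor, at 23.5 against 5.33 (0.227, 0.0575 to 0.654). The highest ratios were those of Il1r2, the decoy receptor of interleukin-1, at 89.6 against 456 (5.09, 4.06 to 6.44), Furin, a protease that matures TGF-β, at 274 against 734 (2.68, 2.32 to 3.09) and Tgfb1 at 231 against 392 (1.70, 1.43 to 2.02), with isotype control given first in each pair.

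In the CTLA-4-titled library 3 of 40 were 2-fold lower, against 5.56% of genes: Il10 (0.0480, 0.0227 to 0.0901), Areg (0.295, 0.107 to 0.710) and Itgae (0.328, 0.25 to 0.426). Ccr4 was 2-fold higher (2.07, 1.70 to 2.53), against 1.65%, followed by Gata3 (1.62, 1.41 to 1.86) and Nrp1 (1.59, 1.25 to 2.04). In the FcγRII-titled library 3 were lower, against 2.3% of genes, and 0 of 40 higher, against 3.15%. The lower genes were Il10 (0.380, 0.270 to 0.524), Bach2 (0.445, 0.249 to 0.758) and Areg (0.496, 0.180 to 1.19), while Furin (1.47, 1.25 to 1.74), Ikzf5 (1.37, 0.916 to 2.05) and Ebi3 (1.34, 0.871 to 2.06) had the highest ratios. With the highest cell of each library left out for each gene, the Il10 ratios were 0.0240 (0.000598 to 0.139) in the combination, 0.0316 (0.00374 to 0.119) in the CTLA-4-titled library and 0.778 (0.479 to 1.24) in the FcγRII-titled library, so that the last call rests on 1 isotype cell. The counts of lower list genes were then 5, 4 and 2 of 40, and of higher ones 3, 2 and 0.

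Foxp3-positive CD4 T cells under isotype control were at least 2-fold higher than negative ones in 15 of 40 of these genes and lower in 3, against 4.38% and 6.11% of genes. Tigit (28.2, 4.61 to 1157), Itgae (10.0, 6.52 to 16.2) and Tnfrsf9, which encodes 4-1BB (8.39, 6.90 to 10.3), had the highest ratios. Nrp1 (0.409, 0.258 to 0.632), Bach2 (0.456, 0.253 to 0.792) and Il10 (0.488, 0.355 to 0.663) had the lowest. All 141 Il10 UMIs of the Foxp3-negative isotype cells lay in 1 cell, the cell that also held 175 of their Il2ra UMIs. In mixed cells, with the highest cell of each group left out, the Il10 ratio was 4.44 (3.55 to 5.61) in the isotype and 8.58 (5.50 to 13.8) in the FcγRII-titled library. It was 2.32 (0.556 to 7.39) in the CTLA-4-titled and 2.78 (0.957 to 6.69) in the combination library, with intervals that include 1. With the highest cell of each group left out for each gene, 19 of 39 list genes were higher and 2 lower under isotype control. In CD8 T cells of the combination, 3 of 37 list genes were 2-fold higher than under isotype control (Socs2, Il1r2 and Prdm1), against 2.93% of genes, and 2 lower (Nrp1 and Izumo1r), against 2.17%.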

How the data were processed

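The deposited values are UMI counts, whole numbers for each gene in each called cell, made by the authors with Cell Ranger from probe-based (10x Flex) libraries of fixed cells. The file headers name Cell Ranger 7.2.0 and the submitters' notes Cell Ranger 7.0.0 and mm10. The authors removed doublets and low-quality cells later, so these files still hold them. Cells with under 500 genes or over 10% mitochondrial UMIs were left out, and so was the 5% of each library with the highest Scrublet score (scanpy 1.11.5), 1409 cells in all, because the automatic calls came to 7 cells. The other 26785 cells were normalized with sctransform 0.4.2, integrated over 3000 features, which left out the 8 genes, and clustered (30 components, resolution 0.8) with Seurat 5.3.0 in R 4.3.3. Clusters were named from marker lists by mean detection, with limits set after the clusters were seen, among them 0.5 for lymphocyte and 0.6 for macrophage lists. Lymphoid shares drawn down leave out 328 of 3286 cells.

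Sums, exact Poisson, conditional and binomial 95% intervals and Pearson r were computed in Python 3.11.15 with scipy 1.17.1. A gene counts as 2-fold higher or lower from a ratio of at least 2 or at most 0.5, among genes with at least 20 UMIs over both groups. These computations were tested on simulated sums with Poisson counting error only, so that test does not cover the spread between cells. All 8 genes are named for CD4 T cells between libraries, while other comparisons give values for only some of them. Of 41 listed Treg genes the 3 highest and 3 lowest are named in the CD4 T cell comparisons described. The members and lists were chosen with earlier results of these data known. No p-value was computed, since each group is 1 library. The closing section gives the alternatives.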

Additional observations from a re-analysis of the deposited data

Results flagged for a closer look

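Ikzf2 and Klrg1 had ratios to isotype control below 1 in CD4 T cells and above 1 in some of the other lymphocytes named here. Each group is 1 library, and none of these differences was tested. For the combination over isotype control, the Ikzf2 ratio was 1.45 (95% counting interval 1.18 to 1.79) in NK cells and 0.241 (0.195 to 0.295) in CD4 T cells. In CD8 T cells it was 1.07 (0.887 to 1.29). The Klrg1 ratio of the same libraries was 1.78 (1.54 to 2.06) in NK cells and 1.91 (1.22 to 3.09) in ILC1, against 0.0661 (0.0357 to 0.113) in CD4 T cells.

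For the CTLA-4-titled library over isotype control, Ikzf2 was at 1.49 (1.26 to 1.78) in CD8 T cells and 0.650 (0.576 to 0.734) in CD4 T cells, while NK cells at 0.932 (0.720 to 1.21) and ILC1 at 0.967 (0.753 to 1.24) had intervals that include 1. Over the alternative settings this Ikzf2 ratio ran from 0.925 to 1.99 in CD8 T cells and from 0.543 to 1.24 in CD4 T cells, and the opposite sides were lost without integration, with gated T cells and with mixed Cd4 cells counted. Klrg1 was at 1.70 (1.17 to 2.56) in CD8 T cells, 1.24 (1.04 to 1.47) in NK cells and 1.68 (1.04 to 2.79) in ILC1, against 0.329 (0.262 to 0.412) in CD4 T cells. Over the alternatives this Klrg1 ratio ran from 0.673 to 2.66 in CD8 T cells and from 0.951 to 2.34 in NK cells, both lowest without integration. All of these share the isotype library, so they are not separate observations.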

How the results depend on the processing

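No paired analysis was possible because each group has 1 library, and no replicate could be left out. The 12 CD4 T cell ratios past 2-fold kept their direction in 131 of 132 alternative values, the exception being Itgb8 in the FcγRII-titled library at 1.03 with T cells gated cell by cell from Cd3 and T cell receptor UMIs. Genes 2-fold lower in the combination numbered 7 or 8 under each alternative. Those higher in Foxp3-positive cells numbered 7 in the isotype library and 6 or 7 in the CTLA-4-titled and FcγRII-titled libraries.

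The Foxp3 ratio of the combination was 0.0891 without integration, 0.0996 as a mean over cells and 0.0975 with the highest cell of each group left out, an alternative chosen after seeing the data. That of the CTLA-4-titled library was 0.463 without integration, 0.484 without cells high in macrophage transcripts, 0.833 with no doublets removed, 0.959 with gated T cells and 1.08 with mixed Cd4 cells counted as CD4 T cells, also chosen after seeing the data. The last pair also count cells with macrophage UMIs, which enter the divisor of the level, and the part of this in the ratio was not tested. The share of cells with a Foxp3 UMI, a count of cells, was 49.6%, 21.8%, 50.3% and 9.52% in gated CD4 T cells. It was 51.4%, 22.0%, 52.0% and 8.87% with mixed Cd4 cells counted. The Foxp3 ratio of the FcγRII-titled library was 1.18 with gated T cells.

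Members 2-fold lower in CD4 T cells of the CTLA-4-titled library numbered 2 with no doublets removed or gated T cells and 1 with mixed cells counted, against 4, and of the FcγRII-titled library 0, against 1, without integration, with no doublets removed, gated, without macrophage-rich cells, as a mean over cells and with mixed cells counted. In CD8 T cells, members higher in the combination numbered 1, against 0, at resolution 0.4, gated, as a mean over cells and without the highest cells, and 1 was lower when gated. In the CTLA-4-titled library 0 were higher without integration or at resolution 0.4, 2 with 2 UMIs required or without the highest cells and 3 with no doublets removed or gated, and 1 was lower when gated or as a mean over cells. In the FcγRII-titled library 1 was lower at resolution 0.4 and 0 with no doublets removed, against 3. Ratios there turned from lower to 1.00 for Ikzf4 and 1.02 for Il2ra when gated and 1.05 for Klrg1 with no doublets removed, and Ikzf4 in NK cells of the combination turned to 0.982 when gated. Mixed cells held 80.5%, 69.5%, 55.2%, 0%, 63% and 25.7% of isotype Foxp3 UMIs without integration, at resolution 1.2, with no doublets removed, gated, without macrophage-rich cells and with mixed Cd4 cells counted. The causes of these changes were not tested. Shares of Foxp3-positive cells in the combination rest on 8 cells.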

Other observations

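T cells with UMIs of both Cd4 and Cd8 numbered 27, 22, 13 and 38, with a median of 23662 UMIs per cell over all libraries, against 4159 in CD4 T cells. A Foxp3 UMI was found in 20, 5, 8 and 4 of them. Foxp3 stood there at 199, 168, 275 and 19.6 CPM, Il2ra at 316, 279, 479 and 48.3 and Klrg1 at 98.6, 177, 65.7 and 14.7, each lowest in the combination. Dendritic cells carried Il2ra at 110.5, 71.0, 93.3 and 49.0 CPM.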
